A study of Mus musculus with 6 samples.

Results

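The extracellular matrix genes of differentiated mouse embryonic stem cells were compared between a static magnetic field incubator (MF) and a conventional incubator (NC). Members were the protein-coding genes whose symbols name a collagen, a small leucine-rich proteoglycan, a fibulin, fibrillin or other elastic-fibre protein, a laminin, a glypican or syndecan, or one of a set of adhesive and matricellular glycoproteins. They numbered 59 of the 2031 genes in the authors' tables, and 20 of the 59 were collagens. The cells came from the J1 embryonic stem cell line, strain 129S4/SvJae, and the labels name no introduced allele in either group. All were driven toward cardiomyocytes in hanging drops, which gave embryoid bodies after 3 days, and were dissociated with trypsin before RNA extraction. MF cells had been stimulated by static magnetic fields and NC cells had not. The sources used here do not give the field strength, how long exposure lasted or when the bodies were collected. Each condition had 3 libraries, which the series describes as biological triplicates, all from 1 cell line.

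Collagen chains wind together into triple helices, and the fibrillar types I, III, V and XI pack into the fibrils that give connective tissue its strength. Proteoglycans carry long sugar chains: small leucine-rich ones such as decorin and lumican sit on collagen fibrils, large ones such as versican fill the space between cells, and glypicans and syndecans stay at the cell surface. In the developing heart, matrix of this kind is made in large part by mesenchymal cells of the valves, epicardium and interstitium, while laminins and type IV collagen form basement membranes.

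The authors' tables hold only genes that passed their own thresholds on these libraries: the highest adjusted p in them is 0.0499 and the smallest absolute log2 fold change 1.001. Library totals were between 14929232 and 19176383 reads, and the deposited genes took between 5.68% and 10.4% of them. Levels are in FPKM, read counts scaled by gene length and by library total. A count of 0 allows up to 3 counts, which is 0.156 to 0.201 FPKM when the gene is 1 kb long, for counting error alone. Of 12 pluripotency markers listed, 3 were in the tables. Of these, Utf1 was still read in MF at 12.6, 85.8 and 21.8 FPKM, against 162, 335 and 131 FPKM in NC. Values below run from replicate 1 to replicate 3 within each condition.

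Nearly the whole set was higher in MF: 56 of the 59 members had the higher mean in MF, and 3 (Spp1, Acan and Col6a5) had the lower. Averaging 0.5 FPKM or more over the 6 libraries, 52 members were tested with edgeR's quasi-likelihood test, and 50 rose and 2 fell. The test calls a gene at a Benjamini-Hochberg adjusted p under 0.05 over the 1651 genes tested. Because the genes had been chosen on the same libraries, 97.5% of all genes tested passed, 62.1% higher and 35.4% lower, so a passed test is no result about the matrix genes. Their direction and size are given as descriptions. Of the tested members 96.2% were higher in MF, against 63.7% of all genes tested, and their median log2 fold change was 2.22, against 1.22. Over the higher genes alone, the median was 2.28 for members, against 1.62 for all genes tested. A change of at least 4-fold in either direction was reached by 31 members, 59.6% of those tested, against 36.3% of all genes tested. Ordered by the authors' p-value on these same libraries, members stood between rank 1 (Col9a1) and rank 1906 (Mgp) of the 2031 genes. Islr was at rank 8 and Col3a1 at rank 13.

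How firmly each gene is called depends on the number of tests adjusted over and on single libraries. When edgeR's p-values were adjusted over 19069 tests, the number recovered from the authors' own p-values, it called 0 members in either direction (background 0.0% higher and 0.0% lower), although all 52 had an unadjusted p under 0.05. With the same adjustment DESeq2 called 31 members higher and 0 lower (background 29.4% and 7.33%). With the replicate number as a block, edgeR called 33 higher and 1 lower under that adjustment (background 22.8% and 7.75%). With factors computed on the deposited genes, 26 members were called higher and 2 lower under TMM scaling (background 17.6% and 35.7%). Under median-of-ratios scaling 20 were called higher and 0 lower (background 9.57% and 30.7%). Both scalings take most genes as unchanged, but all genes here had been chosen as changed. The median log2 fold change of all genes tested became 0.52 and 0.16, against 1.22. Fewer higher calls under these factors are thus no result about the matrix genes.

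Calls were lost over the whole table, not in the matrix genes alone, when a library was left out. Without MF replicate 3, 2 of the 52 members were called, Col9a1 and Islr, which is 3.85%, against 0.727% of all genes tested. Without MF replicate 1, 27 members were called (51.9%, against 27.1%), and without MF replicate 2, 51 (98.1%, against 95.6%). The number was 36 without NC replicate 1 (69.2%, against 38.8%), 32 without NC replicate 2 (61.5%, against 44.5%) and 41 without NC replicate 3 (78.8%, against 61.3%). Leaving out 1 library at a time, 24 members lost the call only when MF replicate 3 was missing. All 52 kept their direction when a library was left out. The genes had been chosen on these same libraries, so a kept direction is no result about the matrix genes.

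Matrix genes took 1.63%, 0.465% and 1.39% of the library total in MF, against 0.4103%, 0.257% and 0.323% in NC. Summed over the 59 genes, the level was 2229, 785 and 1975 FPKM in MF, against 629.8, 440.5 and 569 FPKM in NC. Every MF library was above every NC library, MF replicate 2 by the smallest margin. Sums over members are given without a test. Without Col1a1, the most abundant member, the sum was 1615, 658 and 1527 FPKM in MF, against 438, 373 and 479 FPKM in NC. In RNA from whole embryoid bodies, fewer cells of a type and less RNA per cell cannot be told apart.

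**Figure D1:**
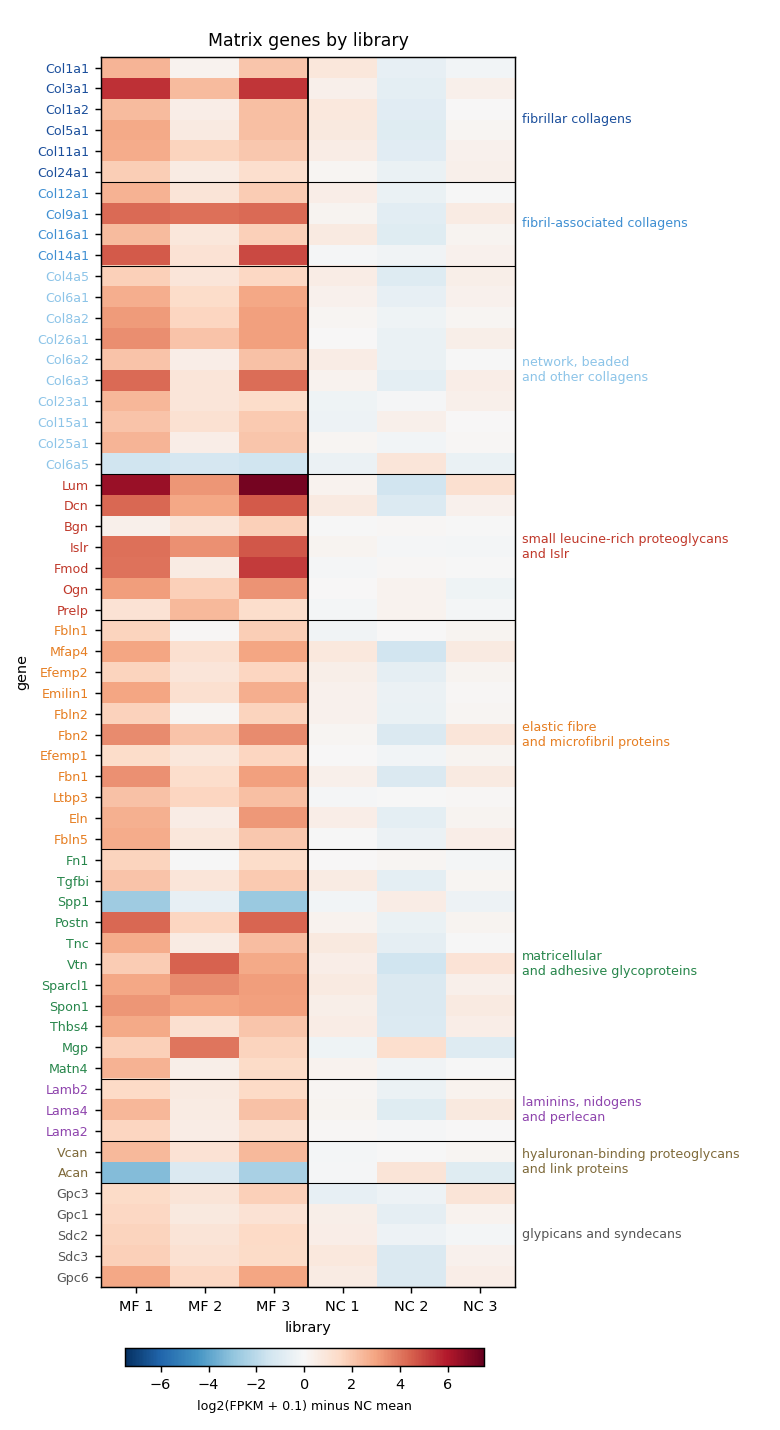
Each row is a matrix gene and each column a library, MF to the left of NC, grouped by family. Colour gives log2(FPKM + 0.1) minus the gene's mean over the 3 NC libraries, red for higher. 56 of the 59 rows have the higher mean in MF, and MF replicate 2 is paler than MF replicates 1 and 3 in most rows.

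MF replicate 2 stood apart from the other MF libraries, and NC replicate 2 from the other NC libraries. MF replicate 2 held the lowest MF value in 46 of the 50 tested members that were higher. This was 92%, against 82.8% of all tested genes that were higher. NC replicate 2 held the lowest NC value in 39 of these 50, 78%, against 72.1%. On the log2(FPKM + 0.1) scale, the median distance of these 50 genes from their NC mean was 2.69, 1.01 and 2.27 in MF replicates 1, 2 and 3. Over all tested genes that were higher, the same distance was 1.80, 1.03 and 1.72. The ranges of MF and NC overlapped in 10 tested members, and in all 10 MF replicate 2 was the only MF library below the highest NC value. These were Col1a1, Col1a2, Col5a1, Col6a2, Fbln1, Fbln2, Fn1, Tnc, Lama4 and Gpc3. Compared within replicate numbers, 9 of these 10, all but Fn1, were higher in MF in all 3 pairs. Over all tested members 49 were higher in all 3 pairs and 2 lower, 94.2% and 3.85%, against 62.6% and 35.9% of all genes tested. This gap follows that in direction: among higher genes, 49 of 50 members and 1034 of 1052 genes tested were higher in all 3 pairs. The other 40 higher members had no overlap (background 58.4% of genes tested), nor had the 2 lower ones (background 34.2%). Among higher genes alone, 80% of members had no overlap, against 91.6% of all tested. Overlap was thus more frequent among matrix genes, at 10 of 52 tested, against 123 of 1651. The summed level of 8 mesenchyme and fibroblast markers was likewise lowest in replicate 2 of each condition. It was 146, 42.4 and 143 FPKM in MF, against 13.6, 6.91 and 14.7 FPKM in NC. Sums of the cardiomyocyte, endoderm, epicardial and chondrocyte markers given below were also lowest in replicate 2 of each condition. Those of endothelial and of smooth muscle and pericyte markers were lowest there in MF only. Of 12 pluripotency markers listed, 3 were in the tables. Their sum was highest in replicate 2 of each condition, at 16.2, 105 and 27.97 FPKM in MF, against 200.4, 428 and 172 FPKM in NC. The part of any of these marker lists in the matrix values was not tested.

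**Figure D2:**
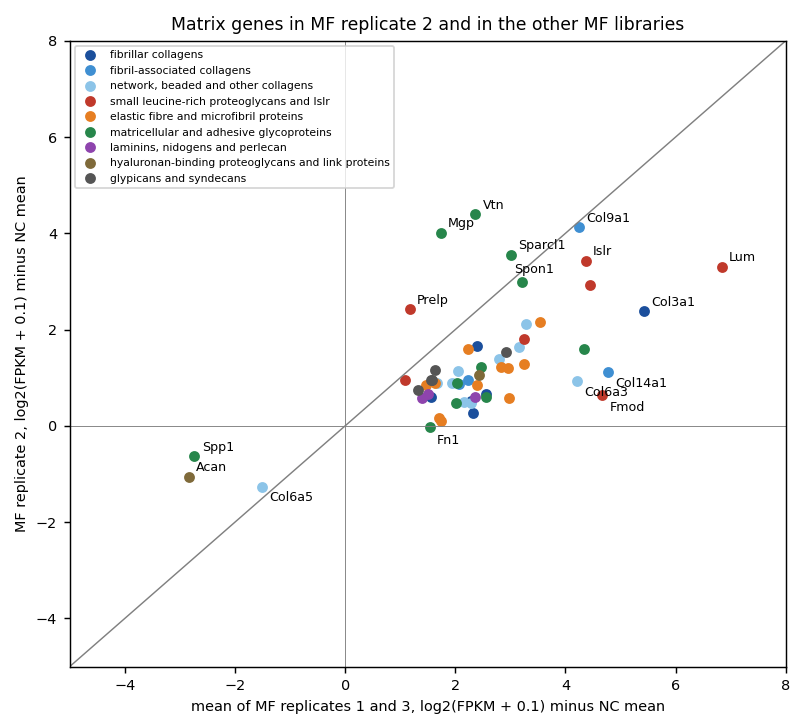
Each point is a matrix gene, coloured by family, with the mean of MF replicates 1 and 3 on the horizontal axis and MF replicate 2 on the vertical axis, both as log2(FPKM + 0.1) minus the NC mean. Most points lie below the diagonal of equal values, and Vtn, Mgp, Sparcl1 and Prelp are among those above it.

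Fibrillar collagens form the backbone of connective tissue, and 6 of the 11 genes listed for them were in the tables. All 6 were higher in MF, and the 5 tested rose. Col1a1, the main chain of type I collagen, was the most abundant matrix gene in 3 of the 6 libraries, MF replicates 1 and 3 and NC replicate 1, and had 615, 127 and 448 FPKM in MF, against 192, 67.6 and 89.3 FPKM in NC. Its MF replicate 2 lay below NC replicate 1, so the ranges overlapped despite a log2 fold change of 1.77 ± 0.65 (SE), adjusted p = 0.0314. Col1a2, the other chain of type I collagen, had 109, 30.6 and 100.2 FPKM in MF, against 36.7, 11.9 and 22.1 FPKM in NC, with the same overlap and a log2 fold change of 1.77. The ratio of Col1a1 to Col1a2 was 5.61, 4.16 and 4.47 in MF, against 5.23, 5.705 and 4.04 in NC, with no difference detected (exact two-sided permutation p = 0.9, the highest of the 4 ratios compared).

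Col3a1, the chain of type III collagen found in elastic and embryonic tissues, was the member of this family that differed most. It had 222, 25.4 and 199 FPKM in MF, against 6.201, 2.83 and 6.28 FPKM in NC (log2 fold change 4.87 ± 0.82 (SE), adjusted p = 0.0111), a 29.2-fold difference. The ranges did not overlap, and MF replicate 2 stood far nearer to NC than the other MF libraries did. Col5a1, a type V chain that helps fibrils form, had 109.5, 23.9 and 71.9 FPKM in MF, against 25.2, 7.98 and 16.8 FPKM in NC and overlapped through MF replicate 2. Col11a1, a minor fibrillar chain of cartilage and other tissues, had 4.71, 2.12 and 2.71 FPKM in MF, against 0.952, 0.282 and 0.762 FPKM in NC (log2 fold change 2.26), without overlap. Col24a1 was below the level tested, with between 0.164 and 0.534 FPKM in MF and between 0.0244 and 0.123 FPKM in NC. Summed over the family, the level was 1061, 209 and 823 FPKM in MF, against 261, 90.6 and 135 FPKM in NC. Calls for Col1a1, Col1a2 and Col5a1 were also lost without MF replicate 1 or NC replicate 2, and those for Col1a1 and Col1a2 without NC replicate 3.

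The promoter windows of Col1a2 and Col3a1 are shown because their fold changes were the smallest and the largest of the 5 fibrillar collagens tested. Each runs from 250 bases before the RefSeq start to 50 after it, 5′ to 3′ on the gene's strand, build GRCm38.p6 (mm10). Capitals mark the TATA sequence TATAAA, the CCAAT box or the AP-1 element TGANTCA on either strand. The Col1a2 window lies at chr6:4505368-4505667, plus strand, and its start is 804 bases from the start the files' gene ID has in the annotation. The Col3a1 window lies at chr1:45311288-45311587, plus strand.
Col1a2: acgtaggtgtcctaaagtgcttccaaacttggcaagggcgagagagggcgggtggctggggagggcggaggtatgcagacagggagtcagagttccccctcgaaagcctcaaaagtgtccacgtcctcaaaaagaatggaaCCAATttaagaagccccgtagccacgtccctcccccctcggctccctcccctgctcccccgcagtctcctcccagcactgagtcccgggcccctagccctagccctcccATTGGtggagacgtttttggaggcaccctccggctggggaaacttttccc
Col3a1: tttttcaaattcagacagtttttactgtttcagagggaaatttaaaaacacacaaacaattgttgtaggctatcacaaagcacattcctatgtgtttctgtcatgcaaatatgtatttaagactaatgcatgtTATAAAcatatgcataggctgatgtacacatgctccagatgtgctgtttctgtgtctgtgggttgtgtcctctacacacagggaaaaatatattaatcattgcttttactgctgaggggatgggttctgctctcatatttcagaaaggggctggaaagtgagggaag
Col1a2 has CCAAT 109 bases before the start and, on the reverse strand, at the start, while Col3a1 has TATAAA 117 bases before it. The GC share was 61.0% in the Col1a2 window and 37.7% in that of Col3a1.

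**Figure D3:**
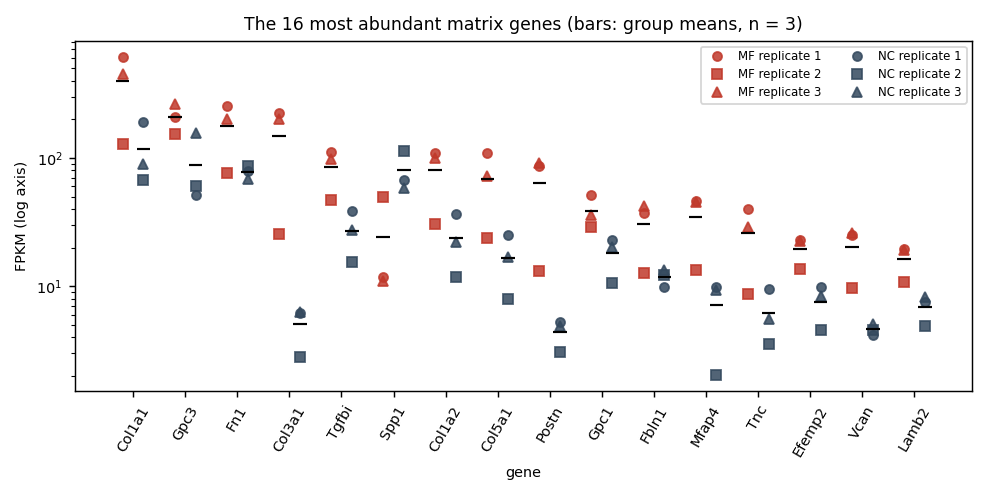
FPKM on a log axis for the 16 matrix genes with the highest mean over the 6 libraries, with MF to the left of NC for each gene, a marker shape per replicate and bars at the group means (n = 3). Col1a1 leads at a mean of 397 FPKM in MF and 116 FPKM in NC, and Spp1 is lower in MF.

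Fibril-associated collagens bind to the surface of fibrils. The tables held 4 of 10 listed, and all 4 rose without overlap between the conditions. Col9a1, the type IX chain best known from cartilage and the vitreous of the eye, had 7.97, 7.38 and 8.098 FPKM in MF, against 0.391, 0.147 and 0.542 FPKM in NC (log2 fold change 4.44 ± 0.55 (SE), adjusted p = 0.00486). Its 3 MF libraries lay close together, and its call held without each library in turn. Col14a1, a chain of type XIV collagen in dense connective tissue, had 4.36, 0.297 and 5.58 FPKM in MF, against 0.0729, 0.0531 and 0.134 FPKM in NC (log2 fold change 5.29 ± 1.0044 (SE), adjusted p = 0.0111). There MF replicates 1 and 3 were far above MF replicate 2, which was still above all NC libraries. Col12a1, of tendon and embryonic mesenchyme, had 15.1, 4.804 and 9.15 FPKM in MF, against 3.49, 1.6998 and 2.37 FPKM in NC, with MF replicate 2 closest to NC. Col16a1 had 4.42, 1.51 and 2.91 FPKM in MF, against 1.31, 0.368 and 0.923 FPKM in NC, and lost its call also without MF replicate 1 or NC replicate 2. The family summed to 31.8, 13.98 and 25.7 FPKM in MF, against 5.26, 2.27 and 3.97 FPKM in NC, a ratio of means of 6.22.

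Network-forming, beaded and other collagens numbered 10 of 24 listed. Of these 9 were higher in MF and 1 lower, and the 7 tested rose. Type VI collagen forms beaded filaments around cells from 3 main chains, and all of these chains were present. Col6a1 had 10.4, 4.13 and 12.1 FPKM in MF, against 1.92, 0.949 and 1.91 FPKM in NC (log2 fold change 2.47 ± 0.53 (SE), adjusted p = 0.0127), with no overlap. Col6a2 had 2.76, 0.822 and 2.89 FPKM in MF, against 0.844, 0.365 and 0.531 FPKM in NC (log2 fold change 1.89), and MF replicate 2 fell below NC replicate 1. Col6a3 had 3.89, 0.294 and 3.63 FPKM in MF, against 0.144, 0.0259 and 0.1904 FPKM in NC (log2 fold change 4.43 ± 0.9975 (SE), adjusted p = 0.0149), a difference of 21.6-fold. The ratio of Col6a1 to Col6a2 was 3.77, 5.03 and 4.17 in MF, against 2.28, 2.599 and 3.6002 in NC (exact permutation p = 0.1, the smallest that 3 against 3 allows, and 0.267 adjusted over the 4 ratios), so no difference between these chains passed the test.

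Col4a5, a basement membrane chain, had 14.6, 7.82 and 12.4 FPKM in MF, against 6.18, 2.09 and 5.59 FPKM in NC, a small difference without overlap. Col8a2, a short-chain collagen of the cornea's Descemet membrane, had 9.32, 3.06 and 8.62 FPKM in MF, against 1.04, 0.719 and 1.03 FPKM in NC (log2 fold change 2.91), with all MF libraries above all NC libraries. Col26a1 had 7.201, 2.701 and 5.25 FPKM in MF, against 0.562, 0.357 and 0.778 FPKM in NC (log2 fold change 3.16 ± 0.52 (SE), adjusted p = 0.0111), also without overlap. Col23a1, a transmembrane collagen, rose by a log2 fold change of 1.91, which was 1.29 without MF replicate 1, where its call was lost. Calls of Col4a5 and Col23a1 were lost without NC replicate 1 too, and those of Col4a5 and Col6a2 without MF replicate 1 or NC replicate 2.

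Of the collagens below the level tested, Col25a1, a transmembrane collagen of neurons, had 0.5604, 0.0594 and 0.377 FPKM in MF, against 0.0245, 0 and 0.0206 FPKM in NC. Its pooled counts were 233 in MF and 9 in NC, a ratio of 23.1 (95% exact interval of the counts 11.98 to 51.2). Col15a1 had 0.788, 0.337 and 0.668 FPKM in MF, against 0.0503, 0.156 and 0.106 FPKM in NC. Col6a5, an additional type VI chain, went the other way, with 0.0111, 0.0316 and 0.0131 FPKM in MF, against 0.136, 0.495 and 0.128 FPKM in NC. Its pooled counts were 9 in MF and 113 in NC, and NC over MF gave 14.1 (7.14 to 31.5). Such intervals cover counting error alone, and no collagen other than Col6a5 had a lower mean in MF. The family summed to 52.7, 20.2 and 47.4 FPKM in MF, against 11.3, 5.599 and 10.9 FPKM in NC.

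Small leucine-rich proteoglycans bind collagen fibrils and set their spacing. With Islr, a related leucine-rich protein found in mesenchymal stromal cells, 7 of 10 listed genes were in the tables. All 7 were higher in MF and the 6 tested rose, none with overlap. As a sum the family had 42.2, 12.1 and 68.2 FPKM in MF, against 2.48, 2.08 and 2.52 FPKM in NC, the highest ratio of means among the 9 families at 17.3. That ratio was 11.5 without MF replicate 3, and 11.3 when CPM, which is not scaled by gene length, was summed. NC libraries lay close together at a low level, and MF replicate 3 was highest.

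Lum, lumican, had 24.5, 2.63 and 40.4 FPKM in MF, against 0.235, 0 and 0.5199 FPKM in NC (log2 fold change 6.48 ± 1.24 (SE), adjusted p = 0.0111). It was read in 2 of 3 NC libraries at under 1 FPKM and not in NC replicate 2. Its log2 fold change was 5.74 without MF replicate 3, 5.89 without NC replicate 2 and 7.56 without NC replicate 3. Dcn, decorin, had 6.51, 2.41 and 7.83 FPKM in MF, against 0.438, 0.0638 and 0.3098 FPKM in NC (log2 fold change 4.36 ± 0.75 (SE), adjusted p = 0.0111), again with MF replicate 2 the lowest in MF. Islr had 4.19, 2.59 and 6.11 FPKM in MF, against 0.1902, 0.139 and 0.125 FPKM in NC (log2 fold change 4.80 ± 0.62 (SE), adjusted p = 0.00486), and its call held without each library in turn. Ogn, osteoglycin or mimecan, had 2.68, 1.02 and 3.16 FPKM in MF, against 0.224, 0.2903 and 0.157 FPKM in NC (log2 fold change 3.34), without overlap.

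Fmod, fibromodulin, had 2.33, 0.126 and 5.48 FPKM in MF, against 0.0386, 0.0563 and 0.0405 FPKM in NC (log2 fold change 5.80 ± 1.23 (SE), adjusted p = 0.0125). Pooled counts were 450 in MF and 7 in NC, MF replicate 2 was the MF library closest to NC, and the fold change was 4.70 without MF replicate 3. Prelp, a leucine-rich protein that anchors basement membranes to connective tissue, had 0.1298, 0.494 and 0.16996 FPKM in MF, against 0, 0.0343 and 0 FPKM in NC. Its 49 pooled counts in MF and 2 in NC gave a ratio of 21.9 (95% exact interval 5.75 to 186). Bgn, biglycan, had the smallest difference here, with 1.88, 2.82 and 5.09 FPKM in MF, against 1.35, 1.496 and 1.37 FPKM in NC (log2 fold change 1.21). Its call was lost without any one library other than MF replicate 2.

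Fmod and Prelp lie next to each other on chromosome 1 in opposite orientation, and their promoter windows are shown because the library with the highest MF value differed between them, MF replicate 3 for Fmod and MF replicate 2 for Prelp. The Fmod window is chr1:134037004-134037303, plus strand, and the Prelp window is chr1:133921352-133921651, minus strand.
Fmod: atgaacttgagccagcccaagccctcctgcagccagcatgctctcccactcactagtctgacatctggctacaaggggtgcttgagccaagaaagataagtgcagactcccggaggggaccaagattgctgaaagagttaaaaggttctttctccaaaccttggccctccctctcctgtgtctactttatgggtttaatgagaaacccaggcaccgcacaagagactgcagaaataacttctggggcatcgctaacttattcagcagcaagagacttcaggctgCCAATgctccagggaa
Prelp: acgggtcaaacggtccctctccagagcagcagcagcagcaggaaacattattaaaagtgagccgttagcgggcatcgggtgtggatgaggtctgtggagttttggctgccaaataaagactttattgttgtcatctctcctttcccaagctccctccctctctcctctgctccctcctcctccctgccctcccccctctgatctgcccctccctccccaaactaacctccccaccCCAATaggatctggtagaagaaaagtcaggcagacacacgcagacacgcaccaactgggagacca
CCAAT stands 15 bases before the start of Prelp and within the transcribed part for Fmod.

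Elastic fibres are built on fibrillin microfibrils, with fibulins, emilins and microfibril-associated proteins joining them. All 11 of the 21 listed genes that were in the tables rose, by log2 fold changes between 1.31 and 3.21. Fbln1, fibulin-1, had 37.4, 12.6 and 41.8 FPKM in MF, against 9.86, 12.2 and 13.4 FPKM in NC and overlapped through MF replicate 2. Mfap4 had 45.9, 13.4 and 45.01 FPKM in MF, against 9.87, 2.03 and 9.34 FPKM in NC (log2 fold change 2.30 ± 0.67 (SE), adjusted p = 0.0232), without overlap. Emilin1, of the elastin and microfibril interface, had 24.7, 7.39 and 21.2 FPKM in MF, against 3.89, 2.31 and 3.38 FPKM in NC (log2 fold change 2.48). The conditions were separate there too. Efemp2, fibulin-4, needed for elastin crosslinking, had 22.7, 13.5 and 22.5 FPKM in MF, against 9.797, 4.54 and 8.38 FPKM in NC, a smaller difference.

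Eln, elastin itself, had 1.21, 0.206 and 1.87 FPKM in MF, against 0.189, 0.022995 and 0.141 FPKM in NC (log2 fold change 3.21 ± 0.93 (SE), adjusted p = 0.0232). MF replicate 3 was the highest and without it the log2 fold change was 2.58. Fbn2, the fibrillin of embryonic microfibrils, had 12.4, 4.72 and 12.3 FPKM in MF, against 1.09, 0.413 and 1.96 FPKM in NC (log2 fold change 3.09 ± 0.63 (SE), adjusted p = 0.0123), or 3.71 without NC replicate 3. Fbn1, fibrillin-1, had 9.99, 2.22 and 7.83 FPKM in MF, against 1.15, 0.348 and 1.42 FPKM in NC (log2 fold change 2.78). Both fibrillins separated the conditions, and the ratio of Fbn1 to Fbn2 was 0.802, 0.46995 and 0.635 in MF, against 1.05, 0.842 and 0.725 in NC (exact permutation p = 0.2, 0.267 adjusted). It was lower in MF in all 3 replicate numbers, where an exact test within numbers cannot go below 0.25. Ltbp3, which binds latent TGF-beta, had 3.48, 2.29 and 3.74 FPKM in MF, against 0.641, 0.691 and 0.746 FPKM in NC (log2 fold change 2.19 ± 0.42 (SE), adjusted p = 0.0111), with little spread in either condition. Fbln5, fibulin-5, rose by 2.62 on the log2 scale, or by 2.02 without MF replicate 1. Calls of Fbln1, Fbln2, Efemp1, Efemp2 and Fbln5 were also lost without MF replicate 1. Those of Fbln1, Fbln2 and Efemp1 were lost without each NC library in turn, that of Efemp2 without NC replicate 2 and that of Fbln5 without NC replicate 1. The family summed to 178, 65.6 and 177 FPKM in MF, against 43.7, 27.3 and 45.9 FPKM in NC.

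Adhesive and matricellular glycoproteins link cells to matrix or modify its signals. Of 24 listed, 11 were in the tables, 10 higher in MF and 1 lower; of the 10 tested, 9 rose and 1 fell. Fn1, fibronectin, had 253, 76.02 and 202 FPKM in MF, against 78.7, 86.7 and 68.8 FPKM in NC (log2 fold change 1.18 ± 0.51 (SE), adjusted p = 0.0456). MF replicate 2 lay below NC replicate 2, and with the replicate number as a block the adjusted p was 0.0509. Under median-of-ratios scaling its log2 fold change was -0.02. Tgfbi, a TGF-beta-induced adhesion protein, had 111, 46.8 and 98.1 FPKM in MF, against 38.4, 15.4 and 27.5 FPKM in NC (log2 fold change 1.65), without overlap. Postn, periostin, of valves and cardiac fibroblasts, had 86.7, 13.2 and 91.8 FPKM in MF, against 5.31, 3.06 and 4.93 FPKM in NC (log2 fold change 3.85 ± 0.71 (SE), adjusted p = 0.0111). Here MF replicates 1 and 3 were close together, and MF replicate 2 was lower but above NC. Tnc, tenascin-C, rose by a log2 fold change of 2.06 and overlapped through MF replicate 2.

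Of the 56 members higher in MF, MF replicate 2 held the lowest MF value in 51 and the highest in 4: Vtn, Sparcl1, Mgp and Prelp. In Bgn MF replicate 1 was the lowest. Among tested genes that were higher, MF replicate 2 was the highest in 6% of members, against 8.37% of all. Vtn, vitronectin, an adhesive glycoprotein of plasma and matrix, had 5.34, 31.1 and 10.5 FPKM in MF, against 1.95, 0.428 and 2.87 FPKM in NC (log2 fold change 3.16 ± 0.81 (SE), adjusted p = 0.01905), or 2.18 without MF replicate 2. Sparcl1, a relative of the matricellular protein SPARC, had 4.58, 7.23 and 5.36 FPKM in MF, against 0.913, 0.1902 and 0.7298 FPKM in NC (log2 fold change 3.22 ± 0.63 (SE), adjusted p = 0.0111). Mgp, matrix Gla protein, an inhibitor of calcification, had 0.571, 3.01 and 0.518 FPKM in MF, against 0.0538, 0.366 and 0 FPKM in NC (log2 fold change 3.21). All 3 separated the conditions, although Mgp rested on 83 pooled counts in MF and 8 in NC. Without MF replicate 2 its log2 fold change was 1.89 and its adjusted p 0.144, and without NC replicate 2 it was 5.34. Spon1, an adhesion protein of the developing nervous system, had 5.56, 4.34 and 4.66 FPKM in MF with little spread, against 0.671, 0.161 and 0.781 FPKM in NC. Thbs4, thrombospondin-4, rose by 2.32, and Matn4 was below the level tested, with between 0.184 and 1.14 FPKM in MF and between 0.07198 and 0.148 FPKM in NC. Besides MF replicate 3, calls were lost without MF replicate 1 for Fn1, Tgfbi, Tnc and Thbs4, without each NC library in turn for Fn1, without NC replicate 1 for Thbs4 and Mgp, without NC replicate 2 for Tnc and without NC replicate 3 for Mgp.

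Spp1, osteopontin, a secreted phosphoprotein that binds integrins, fell. It had 11.7, 49.5 and 11.1 FPKM in MF, against 67.6, 114 and 58.1 FPKM in NC (log2 fold change -1.73 ± 0.62 (SE), adjusted p = 0.0305). The ranges did not overlap, MF replicate 2 was the MF library nearest to NC, and without it the log2 fold change was -2.81. NC replicate 2 held the highest value. Its call was lost without MF replicate 1, MF replicate 3, NC replicate 1 or NC replicate 2. Spp1 was the fourth most abundant matrix gene in MF replicate 2. Summed over the family, the level was 522, 241 and 455 FPKM in MF, against 204, 224 and 169.8 FPKM in NC.

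The windows of Postn and Spp1 are shown because these abundant glycoproteins moved in opposite directions. That of Postn is chr3:54360857-54361156, plus strand, and that of Spp1 is chr5:104434861-104435160, plus strand.
Postn: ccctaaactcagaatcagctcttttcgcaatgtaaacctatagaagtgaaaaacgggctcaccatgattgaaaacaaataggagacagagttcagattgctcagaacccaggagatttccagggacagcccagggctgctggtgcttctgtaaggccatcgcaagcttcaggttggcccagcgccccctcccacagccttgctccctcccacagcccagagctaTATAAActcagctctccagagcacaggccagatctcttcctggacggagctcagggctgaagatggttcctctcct
Spp1: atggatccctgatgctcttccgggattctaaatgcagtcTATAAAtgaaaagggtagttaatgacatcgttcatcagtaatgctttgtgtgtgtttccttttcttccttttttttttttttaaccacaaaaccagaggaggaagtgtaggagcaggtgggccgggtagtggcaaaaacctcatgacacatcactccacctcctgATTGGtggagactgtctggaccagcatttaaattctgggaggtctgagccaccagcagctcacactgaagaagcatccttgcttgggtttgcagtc
Both hold TATAAA, 26 bases before the start in Postn and 211 before it in Spp1, and Spp1 also holds CCAAT on the reverse strand 46 bases before the start.

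RefSeq windows were matched by symbol for 42 of the 59 members. Some RefSeq starts were far from the annotated gene start, by 49344 bases for Col25a1, 45752 for Islr, 2816 for Lama2 and 1555 for Fbn1. Their windows were kept in the shares below. Over the 42, TATAAA was in 14.3% of members' windows, against 10.1% for the named genes of the tables and 13.6% of all 32851 windows. CCAAT was in 33.3%, against 38.7% and 37.4%. The E-box CANNTG was in 69.0%, against 67.4% and 72.3%, and the AP-1 element TGANTCA in 7.14%, against 6.42% and 7.81%. AGATAG, which binds some GATA factors, was in 1 of the 42, or 2.38%, against 6.92% and 8.95%. CATTCC, the TEAD sequence, was in 11.9%, against 13.1% and 14.7%. GGGCGG, an Sp1 sequence, was in 57.1%, against 55.3% and 35.7%. The median GC share of members' windows was 57.2%, against 59.3% and 52.7%. All motifs were searched on both strands, overlaps between them were not removed, and a match is a description only.

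Among the hyaluronan-binding proteoglycans, 2 of 8 listed genes were in the tables, and they moved in opposite directions. Vcan, versican, the large proteoglycan of the cardiac jelly, had 24.996, 9.696 and 25.8 FPKM in MF, against 4.19, 4.59 and 5.11 FPKM in NC (log2 fold change 2.12 ± 0.46 (SE), adjusted p = 0.0131). All MF libraries were above NC, and MF replicate 2 was the lowest of them. Acan, aggrecan, the large proteoglycan of cartilage, had 0.0279, 0.478 and 0.123 FPKM in MF, against 1.03, 2.28 and 0.547 FPKM in NC (log2 fold change -2.62 ± 0.93 (SE), adjusted p = 0.0301). MF values were low throughout and MF replicate 2 the highest of them, with no overlap. The fold change of Acan was -4.09 without MF replicate 2 and -1.92 without NC replicate 2, and the call was lost without MF replicate 1, MF replicate 3, NC replicate 1 or NC replicate 2. Together the pair summed to 25.02, 10.2 and 25.9 FPKM in MF, against 5.22, 6.87 and 5.66 FPKM in NC, most of it Vcan.

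Glypicans and syndecans hold growth factors at the cell surface by their heparan sulphate. The tables held 5 of 10 listed, and all 5 rose. Their median log2 fold change was 1.32, below that of all members and below the 1.62 of all tested genes that were higher. Gpc3, a glypican abundant in embryos, was the second most abundant matrix gene over the 6 libraries, with 208, 152 and 265 FPKM in MF, against 51.1, 60.1 and 155 FPKM in NC (log2 fold change 1.23 ± 0.51 (SE), adjusted p = 0.0411). NC replicate 3 stood above MF replicate 2, and without NC replicate 3 the log2 fold change was 1.91. Gpc1 had 51.3, 28.8 and 35.7 FPKM in MF, against 23.1, 10.7 and 20.2 FPKM in NC. Sdc2, a syndecan of mesenchymal cells, had 16.4, 10.1 and 14.6 FPKM in MF, against 7.48, 3.94 and 4.65 FPKM in NC. Sdc3 had 12.1, 7.77 and 9.47 FPKM in MF, against 6.04, 1.52 and 4.19 FPKM in NC. None of these 3 overlapped, and their log2 fold changes were 1.10, 1.35 and 1.32. Gpc6 had 5.31, 2.01 and 5.56 FPKM in MF, against 1.004, 0.242 and 0.928 FPKM in NC (log2 fold change 2.57 ± 0.64 (SE), adjusted p = 0.0172) and differed most in this family. Calls other than that of Gpc6 were also lost without MF replicate 1. Among NC libraries, the call of Gpc1 was lost without any one, that of Gpc3 without replicate 1 or 2, that of Sdc3 without replicate 2 or 3 and that of Sdc2 without replicate 3. The family summed to 293, 201 and 330.1 FPKM in MF, against 88.8, 76.4 and 185 FPKM in NC.

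Of the laminins, nidogens and perlecan, which build basement membranes, 3 of 14 listed genes were in the tables, all higher in MF. Lamb2, the laminin beta-2 chain, had 19.4, 10.7 and 19.03 FPKM in MF, against 7.57, 4.899 and 8.19 FPKM in NC (log2 fold change 1.25), without overlap. Lama4, an alpha chain of blood vessels and muscle, had 4.28, 1.07 and 3.45 FPKM in MF, against 0.783, 0.303 and 1.17 FPKM in NC (log2 fold change 1.96), and MF replicate 2 lay among the NC libraries. Lama2, the alpha chain of muscle basement membrane, was below the level tested at 0.273, 0.08603 and 0.189 FPKM in MF, against 0.0308, 0.01495 and 0.0282 FPKM in NC. Both calls were also lost without MF replicate 1, NC replicate 1 or NC replicate 2. The 3 genes summed to 24.002, 11.8 and 22.7 FPKM in MF, against 8.39, 5.22 and 9.39 FPKM in NC.

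**Figure D4:**
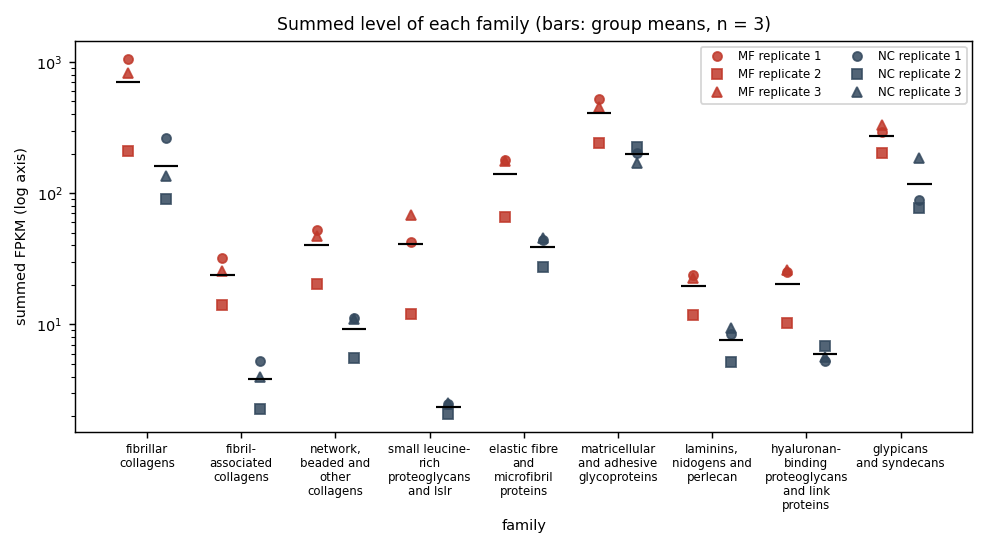
Summed FPKM of each of the 9 families on a log axis, MF to the left of NC, with a marker shape per replicate and bars at the group means (n = 3). The ratio of means runs between 2.04 for matricellular and adhesive glycoproteins and 17.3 for small leucine-rich proteoglycans (11.5 without MF replicate 3), and fibrillar collagens are the family whose MF and NC libraries overlap.

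Members that lie within 1 Mb of each other formed 6 pairs in mm10. Prelp (chr1:133910304-133921414, minus strand) and Fmod (chr1:134037254-134048277, plus strand) are 115.8 kb apart, and both were higher in MF. Dcn (chr10:97479609-97518143, plus strand) and Lum (chr10:97565128-97572703, plus strand) are 46.98 kb apart on chromosome 10. The ratio of Lum to Dcn was 3.76, 1.09 and 5.16 in MF, against 0.537, 0 and 1.68 in NC (exact permutation p = 0.2, 0.267 adjusted), higher in MF in all 3 replicate numbers. Col6a2 (chr10:76595762-76623630, minus strand) and Col6a1 (chr10:76708792-76726168, minus strand) are 85.16 kb apart. No coding gene lies between the genes of these 3 pairs in the annotation.

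Efemp2 and Ltbp3 are 258.4 kb apart on chromosome 19 with 16 coding genes between them, and Col16a1 and Sdc3 are 693.3 kb apart on chromosome 4 with 10, of which Tinagl1 was in the tables. In both pairs the 2 members rose. Sparcl1 (chr5:104079111-104113733, minus strand) and Spp1 (chr5:104435118-104441050, plus strand) are 321.4 kb apart on chromosome 5 and moved in opposite directions. Between them lie Dspp, Dmp1, Ibsp and Mepe, matrix phosphoprotein genes of bone and teeth that were not analysed here.

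**Figure D5:**
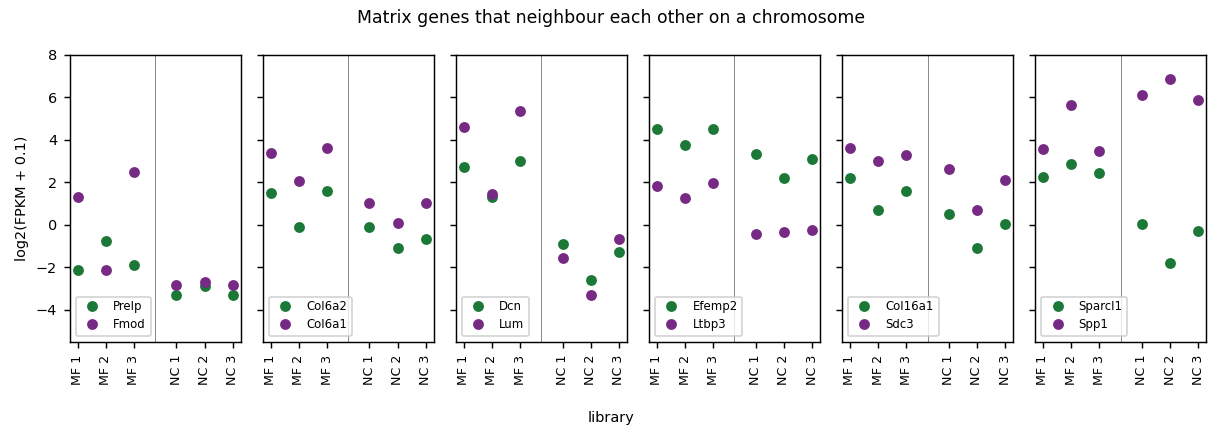
log2(FPKM + 0.1) in each library, MF to the left of NC, for the pairs of matrix genes that lie within 1 Mb of each other, 1 panel per pair. Both genes are higher in MF in each panel except that of Sparcl1 and Spp1, where Sparcl1 is higher and Spp1 lower.

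Genes that make, process and remodel matrix were read beside its components. Of all genes tested 62.1% were called higher and 35.4% lower, so the numbers that rose or were called in the lists below are descriptions only. For collagen modification, folding and crosslinking, 12 of 27 listed genes were in the tables, all higher in MF, and 9 of 11 tested were called. The median log2 fold change of the 11 was 1.29, below the 1.62 of all tested genes that were higher. Serpinh1, the collagen chaperone HSP47, had 675, 334 and 544 FPKM in MF, against 318, 117 and 291 FPKM in NC and was not called (adjusted p = 0.0565), nor was Loxl3 (adjusted p = 0.0525). Loxl1, Loxl2 and Tgm2, which crosslink elastin, collagen and other matrix proteins, rose by log2 fold changes of 1.32, 1.29 and 1.05. Of procollagen processing genes, 3 of 8 were in the tables and the 2 tested rose, by a median of 2.67, above that 1.62. Pcolce, which speeds removal of the C-terminal propeptide, had 49.5, 20.9 and 47.8 FPKM in MF, against 13.02, 12.9 and 11.003 FPKM in NC. Adamts2, which removes the N-terminal one, had 10.5, 0.9499 and 7.68 FPKM in MF, against 0.643, 0.339 and 0.524 FPKM in NC. Adamts2 was the more different of the pair, by a log2 fold change of 3.66.

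For matrix turnover, 12 of 21 listed genes were in the tables and all 11 tested rose. Their median log2 fold change was 1.25, below the 1.62 of all tested genes that were higher. Mmp2, a gelatinase, had 115, 56.1 and 96.4 FPKM in MF, against 56.5, 36.02 and 40.6 FPKM in NC. Its inhibitor Timp2 rose by 1.25 and its activator Mmp14 by 1.19 on the log2 scale, and Mmp15 by 1.61. Of matrix receptors, 9 of 26 were in the tables and the 7 tested rose, by a median of 1.96, above that 1.62. Itgb5, an integrin chain that binds vitronectin, had 77.6, 40.6 and 59.3 FPKM in MF, against 34.05, 18.2 and 29.98 FPKM in NC. Mrc2, which takes up collagen, had 20.7, 8.06 and 15.8 FPKM in MF, against 5.38, 1.93 and 4.16 FPKM in NC. Cd47 and Cd44, receptors of thrombospondin and hyaluronan, rose by 1.18 and 1.41. Neither condition overlapped the other in these 4 receptors, nor in 91.6% of all tested genes that were higher.

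Of glycosaminoglycan synthesis genes, 9 of 34 were in the tables and the 8 tested rose. Their median log2 fold change was 1.32, below the 1.62 of all tested genes that were higher. Has2, the hyaluronan synthase of the embryonic heart, had 19.4, 9.07 and 19.2 FPKM in MF, against 3.54, 0.982 and 7.71 FPKM in NC. Ndst1 and Hs6st2, which sulphate heparan sulphate, and Chst14, which sulphates dermatan sulphate, rose by 1.32, 1.73 and 1.32. Of TGF-beta ligands and receptors, 4 of 16 were in the tables and all rose, by a median of 1.64, close to that 1.62. Tgfbr1 rose by 1.15, Tgfbr2 by 1.48, Tgfbr3 by 2.18 and the ligand Tgfb3 by 1.81. Of 9 other small leucine-rich proteins listed, 0 were in the tables.

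Of the listed markers of cell types an embryoid body can hold, most of those in the tables were higher in MF. So were 63.7% of all genes tested. All 8 of 12 mesenchyme and fibroblast markers in the tables rose, led in abundance by Twist1 with 67.2, 17.3 and 68.2 FPKM in MF, against 3.45, 2.17 and 5.68 FPKM in NC. Of 14 cardiomyocyte markers 11 were in the tables and all rose, summing to 717, 143 and 366 FPKM in MF, against 55.1, 37.3 and 78.7 FPKM in NC. MF replicate 2 was the lowest MF library in 8 of these 11 and the highest in 2, Myl2 and Tnni3. Of 16 markers of primitive, parietal and visceral endoderm, which also make basement membrane, 3 were in the tables and rose, summing to 60.9, 22.6 and 50.7 FPKM in MF, against 12.7, 7.51 and 15.3 FPKM in NC. Of 7 epicardial markers 4 were present and the 3 tested rose, summing to 5.995, 4.11 and 9.57 FPKM in MF, against 2.15, 1.48 and 1.63 FPKM in NC. The remaining lists were thinner: 6 of 9 endothelial markers summed to 45.6, 24.3 and 37.3 FPKM in MF, against 13.9, 43.7 and 21.4 FPKM in NC, with 5 that rose and Pecam1 that fell. Of 7 chondrocyte markers, Sox6 and Sox5 were present, summing to 2.99, 1.24 and 3.19 FPKM in MF, against 0.5503, 0.153 and 0.534 FPKM in NC, and of 7 smooth muscle and pericyte markers Rgs5 was, at 5.51, 2.87 and 5.31 FPKM in MF, against 0.211, 0.246 and 1.22 FPKM in NC. Of 7 neural markers 0 were in the tables. No listed marker that was present was at 0 in any library, MF replicate 2 was below MF replicates 1 and 3 in all of these sums, and their part in the matrix differences was not tested.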

How the data were processed

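Poly-A RNA was sequenced from 3 MF and 3 NC libraries. The submitters' processing notes list HISAT2 2.0.5, featureCounts and mm10 but no settings. The sources used here do not state strand use in counting, so overlapping genes are uncertain. Per the file headers, the deposited tables hold a raw count per gene, FPKM and a normalized signal, beside columns of the authors' own comparison (log2 fold change, p-value, adjusted p-value), whose program the sources used here do not name. Library totals were recovered from the deposited count and FPKM columns. Named genes averaging 0.5 FPKM or more were tested (1651, with 332 below), and 48 rows without a name, 0.0134% to 0.0390% of the totals, stayed out. The 2-sided edgeR quasi-likelihood test (edgeR 4.0.16, R 4.3.3) ran on the counts with group as the only term and Benjamini-Hochberg adjustment at 0.05 over the genes tested. 4 ratios between members were compared by exact permutation over libraries, and family sums are given without a test.

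Alternatives were TMM and median-of-ratios factors, DESeq2 1.42.0, no filter, a filter at 2 FPKM, limma 3.58.1 on log2(FPKM + 1) and log2(FPKM + 0.1), a replicate block, adjustment over the 19069 recovered tests and leaving out libraries. Same-numbered MF and NC libraries deviated together (correlations 0.405, 0.536 and 0.354), although NC replicate 3 correlated more with MF replicate 1 (0.54). Promoter windows came from RefSeq, GRCm38.p6. Per family, values in all libraries are given for the 4 most abundant members, the 2 with the largest fold changes, members lower in MF and close neighbours. The members, families and lists were chosen with earlier results of these data known.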

Additional observations from a re-analysis of the deposited data

How the results depend on the processing

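The 50 members called higher became 26 with TMM factors and 20 with median-of-ratios factors (all genes tested: 291 and 158 of 1651), 0 with adjustment over the 19069 recovered tests (50 at an unadjusted p under 0.05), and between 2 and 49 when 1 library was left out (12 to 996 of the 1651 genes tested). The lowest count came without MF replicate 3. The 2 called lower, Spp1 and Acan, became 0 with median-of-ratios factors (edgeR, 2 at an unadjusted p under 0.05), 0 with adjustment over the recovered tests (2 at an unadjusted p under 0.05), 1 with a filter at 2 FPKM, which removes Acan, and between 0 and 2 when 1 library was left out. DESeq2 adjusted over the recovered tests, an alternative chosen after seeing the data, called 31 higher and 0 lower (2 at an unadjusted p under 0.05), and the replicate block adjusted over them, also chosen after seeing the data, called 33 higher and 1 lower. The replicate block adjusted over the genes tested called 49 higher and 2 lower and changed no call other than that of Fn1, which limma with either pseudocount did not call either. The median log2 fold change of 2.22 was 1.16 with median-of-ratios factors and between 1.88 and 2.53 when 1 library was left out. The median of all genes tested was 1.22 as reported, 0.52 with TMM and 0.16 with median-of-ratios factors. Both were computed on the deposited genes alone, all chosen as changed, while such factors take most genes as unchanged. Under median-of-ratios factors no difference was detected for Fn1, at -0.0232 (edgeR adjusted p = 0.978). DESeq2 adjusted over the genes tested, no filter and leaving out both replicate 2 libraries changed no call. The replicate block, as sign flips within replicate numbers chosen after seeing the data, called none of the 4 ratios (smallest possible p 0.25). Except where the text gives a value, the cause of these changes was not tested.

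With 3 libraries a condition, exact tests could not go below p = 0.1, and p-values measure the spread between these libraries. Genes near 0 in NC, such as Lum, Fmod, Prelp and Mgp, rest on few counts, so their fold changes are imprecise.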
